A study of Rattus norvegicus with 12 samples.

Results

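The hypoxia-inducible factor (HIF) pathway was described in the renal cortex of obese rats through 10 genes that were chosen by name: the HIF alpha subunit genes Hif1a and Epas1, the prolyl hydroxylase genes Egln1, Egln2 and Egln3, and the hypoxia-induced genes Vegfa, Adm, Bnip3, Ndrg1 and Pfkfb3. Of these 10 genes, 9 were among the 13151 genes of the deposited table, and these 9 were among the 11633 genes tested. The level of Egln1 was not analysed here. The study sequenced total RNA of whole kidney cortex from 12 male rats aged 32 weeks, to ask which genes accompany obesity-related nephropathy and its treatment. The ZL group was 4 Zucker Lean rats, the lean controls. The ZF group was 4 untreated Zucker Fatty rats, the obese controls. According to the study's methods the strain lacks the leptin receptor, and such rats overeat and become obese. The ZF-SGLT2i group was 4 Zucker Fatty rats that received canagliflozin, an inhibitor of the sodium-glucose cotransporter SGLT2, daily at 10 mg/kg body weight, starting at the age of 24 weeks and lasting 8 weeks. SGLT2 takes filtered glucose back into the cells of the early proximal tubule, so the drug causes glucose to be lost in the urine. According to the methods, ZL and ZF rats followed over time had part of a kidney removed in biopsies before they were killed, and whether the sequenced rats were among them is not given in the sources used here.

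HIF is a transcription factor made of an oxygen-regulated alpha subunit and a constant beta subunit. In the presence of oxygen the prolyl hydroxylases modify the alpha subunits, which the von Hippel-Lindau (VHL) ubiquitin ligase then marks for destruction. When oxygen is scarce the alpha subunits escape this, join the beta subunit and switch on genes for glycolysis, vessel growth, iron transport and mitochondrial turnover. In the kidney HIF-1α is found mainly in tubular cells, while HIF-2α, the product of Epas1, is found mainly in endothelial and interstitial cells, which include the cells that make erythropoietin. Since the alpha subunits are controlled mainly as proteins, their mRNA levels do not give their activity, and no protein was measured in these data.

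HIF binds DNA at the short core letters ACGTG or GCGTG, and promoters that hold them are shown here because the 10 genes include both parts of the HIF machinery and its targets. RefSeq promoter windows of the GRCr8 build, each of 300 bases from 250 bases before to 50 bases after a gene's start, matched 9 of the 10 genes, all but Ndrg1. Both strands were searched. Before the gene start, ACGTG was in the windows of Hif1a, Bnip3 and Pfkfb3, and GCGTG was in those of Egln1 and Bnip3. Of all 33469 windows, 16.6% held ACGTG and 25.9% held GCGTG before the start, and 36.7% held at least 1 of them. In Hif1a, Bnip3 and Pfkfb3 an ACGTG lay inside the palindrome CACGTG, the E-box that the circadian activators CLOCK and BMAL1 also read, and 5.6% of all windows held CACGTG before the start. The capitals mark CACGTG.
Hif1a, E-box 229 bases before the start, GRCr8 chr6:98359654-98359689, plus strand: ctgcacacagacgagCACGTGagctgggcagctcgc
Bnip3, E-box 99 bases before the start, GRCr8 chr1:203155041-203155076, minus strand: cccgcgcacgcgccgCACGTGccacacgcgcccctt
Pfkfb3, E-box 42 bases before the start, GRCr8 chr17:71944876-71944911, plus strand: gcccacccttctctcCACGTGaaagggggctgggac
No ACGTG or GCGTG was in the windows of Epas1, Egln2, Egln3, Vegfa and Adm. These matches describe letters only, and binding was not measured.

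Values are given as scaled counts per library size (CPM), 1 for each rat, in the order of the rat numbers in the labels (ZL 1 to 4, ZF 2 to 5, and ZF-SGLT2i 2, 3, 4 and 6). The libraries held 8824980 to 12210257 reads assigned to genes. Differences are log2 fold changes on the scale log2(value + 1), which understates the change of genes with low values. They are given with the standard error (SE) and the p-value of limma adjusted by the Benjamini-Hochberg method over all 11633 genes, and genes with an adjusted p under 0.05 are called. Single values were also compared with a two-sided exact permutation test of 4 rats against 4, whose smallest possible p is 0.0286. Groups that do not overlap always give 0.0286 in this exact permutation test. For the comparisons below whose groups are said not to overlap, it therefore adds nothing further.

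The renal cortex of ZF rats had higher levels of Pfkfb3, Egln3, Adm and Hif1a mRNA than that of ZL rats. Its level of Ndrg1 was lower by more than 1 on the log2 scale. Of 23 alternative settings for ZF against ZL, Pfkfb3 and Ndrg1 were called in all, Adm in 22, Egln3 in 18 and Hif1a in 12. Egln2, Vegfa, Epas1 and Bnip3 were not called in that comparison. None of the 9 genes was called between the ZF-SGLT2i and ZF groups. In ZF against ZL 5 of the 9 genes were called, 4 higher and 1 lower, while 18.8% of all genes tested were called, 8.19% higher and 10.6% lower. In ZF-SGLT2i against ZF 0 of the 9 were called with limma, edgeR or DESeq2, 0 had an unadjusted p under 0.05 (17.2% of all genes), and 3.15% of all genes were called, 1.39% higher and 1.75% lower. In ZF-SGLT2i against ZL 5 of the 9 were called, 4 higher and 1 lower, and 27.4% of all genes were called, 12.4% higher and 15% lower. The last of these comparisons shares its rats with the other two, so it is not a separate test of either.

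**Figure D1:**
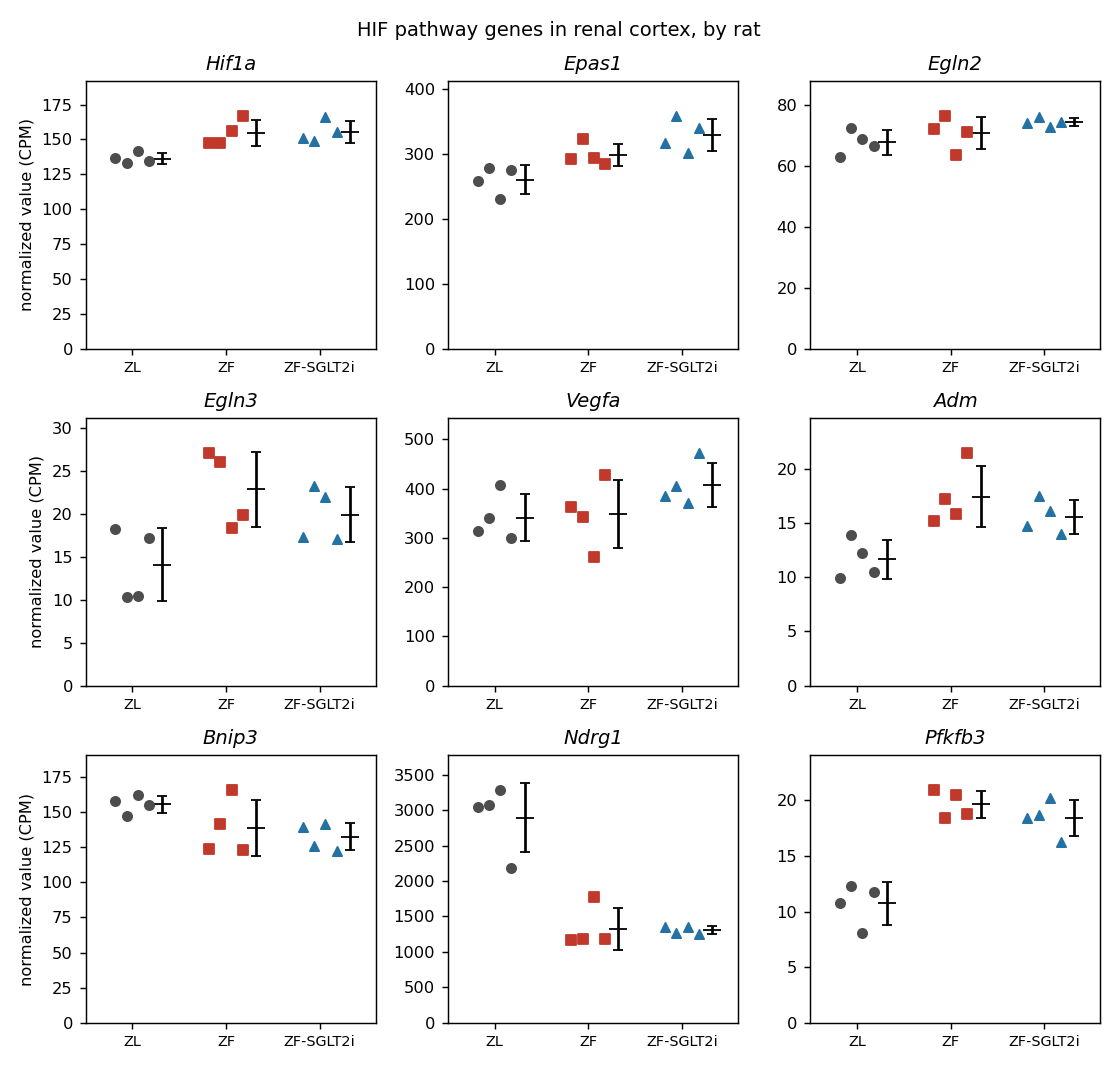
Values of the 9 measured HIF pathway genes in each rat (vertical axis, CPM from 0, a scale for each gene), by group (horizontal axis); circles are ZL, squares ZF and triangles ZF-SGLT2i rats, and the bars are the mean ± SD of 4 rats. Ndrg1 lay between 2186 and 3281 in ZL rats and between 1166 and 1769 in all obese rats, while Pfkfb3 was at most 12.3 in ZL rats and at least 16.3 in all obese rats.

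The values of the 4 rats of a group did not overlap with those of the other group for 6 of the 9 genes in ZF against ZL (19% of all genes tested), for 0 in ZF-SGLT2i against ZF (11.2%) and for 7 in ZF-SGLT2i against ZL (28%). The median difference of the 9 genes was 0.18, 0.00 and 0.26 in these 3 comparisons, and that of all genes was -0.01, 0.01 and -0.00. The 10 genes were chosen with earlier results of these data known, so these shares describe the genes and were not tested against other genes. The groups differ in more than these genes, and in bulk tissue fewer cells of a type and less RNA per cell cannot be told apart.

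The tissue was checked against markers of its cells. The proximal tubule genes were the most abundant of the marker lists, led by Lrp2, the endocytic receptor megalin, and none of the 8 was at 0 in any rat. Their summed level was 22044, 21234, 22458 and 19942 in the ZL rats, 17091, 16878, 20299.5 and 15698 in the ZF rats and 17046, 15327, 15628 and 13100.4 in the ZF-SGLT2i rats. It was thus lower in most obese rats, with an overlap at ZF rat 4. In ZF against ZL 2 of the 8 genes were called, Slc22a6 higher and Aqp1 lower. That is 25%, against 18.8% of all genes. Markers of injured tubule cells summed to 449.6, 397, 369 and 453 in ZL, 1945, 721, 1459.8 and 593 in ZF and 1172, 1135, 828 and 461 in ZF-SGLT2i rats, with Spp1 the most abundant. In ZF against ZL 5 of 7 rose, or 71.4%, against 8.19% of all genes called higher. Among them Havcr1, the injury molecule KIM-1, rose by 3.01 and Spp1, osteopontin, by 1.98. Podocyte markers summed to 1325, 1675, 1259.8 and 1373 in ZL, 1888, 1843, 1564 and 2004 in ZF and 1568, 1898, 2007 and 1996 in ZF-SGLT2i rats, with Podxl the most abundant. Of these, 4 of 7 rose in ZF against ZL, or 57.1% against 8.19% of all genes called higher.

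Endothelial markers summed to 519.5, 578, 428 and 544 in ZL, 655, 643, 588 and 582 in ZF and 503, 595, 505 and 625 in ZF-SGLT2i rats. Of these 8 genes Tie1, Eng and Egfl7 rose in ZF against ZL, or 37.5% against 8.19% of all genes called higher. Eng was the most abundant. Fibroblast and pericyte markers summed to 537, 527, 397 and 542 in ZL, 768, 565, 757 and 481 in ZF and 418, 379, 386 and 379 in ZF-SGLT2i rats. Of the 5 tested, Pdgfrb and Col1a1 rose in ZF against ZL, or 40% against 8.19% of all genes called higher. Pdgfrb, Col3a1 and Dcn fell in ZF-SGLT2i against ZF, or 60% against 1.75% of all genes called lower. The collecting duct list was highest in the ZF-SGLT2i rats, at 2155, 2279, 2219.6 and 2491, against 1533, 1802, 1281 and 1904 in ZF and 1414, 1872, 1506 and 1187 in ZL rats. In ZF-SGLT2i against ZL 6 of its 7 genes rose, or 85.7% against 12.4% of all genes called higher. Blood markers summed to 5.65, 3.29, 5.44 and 4.73 in ZL, 21.5, 6.21, 16.2 and 26.3 in ZF and 27.4, 3.63, 25.9 and 53.8 in ZF-SGLT2i rats, led by Hba2, an alpha globin. The part of these cell markers in the differences of the HIF pathway genes was not tested.

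A pair of rats, ZL rat 4 and ZF rat 4, stood apart within their groups in several circadian clock genes, though not in all. In Per1 and Per2 the highest ZL rat was ZL rat 3, at 142 and 110. In Nr1d1 the lowest ZF rat was ZF rat 3, at 110.2. Arntl, which encodes the circadian activator BMAL1, was at 51.4, 47.9, 42.8 and 30.4 in ZL rats and at 3.64, 2.31, 7.01 and 1.42 in ZF rats, so the lowest ZL value was that of ZL rat 4 and the highest ZF value that of ZF rat 4. Dbp, a gene that BMAL1 switches on, was at 25.3, 37.5, 34.0 and 65.9 in ZL rats and 250.4, 297, 182 and 286 in ZF rats, and the same pair of rats lay nearest to the other group. Without both rats 5 of the 9 HIF pathway genes were called in ZF against ZL, 3 higher and 2 lower (19.2% of all genes), 0 in ZF-SGLT2i against ZF (2.52%), and 5 in ZF-SGLT2i against ZL (25.3%). Ribosomal RNA genes summed to 104600.0, 127271, 73011 and 111757 in ZL rats, lowest in ZL rat 3, and to 106411, 118388, 84319.7 and 114241 in ZF and 117724, 144443, 115367 and 150791 in ZF-SGLT2i rats.

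Hif1a encodes HIF-1α, the alpha subunit best known for the switch to glycolysis. Its level was 136, 133, 141 and 135 in ZL rats, 147, 147, 156 and 167 in ZF rats and 151, 149, 166 and 155 in ZF-SGLT2i rats. All 8 obese rats lay above all 4 ZL rats, and the obese groups overlapped. The difference was small: the log2 fold change was 0.18 (SE 0.06, adjusted p = 0.0401) in ZF against ZL and 0.19 (SE 0.06, adjusted p = 0.0243) in ZF-SGLT2i against ZL. Between ZF-SGLT2i and ZF it was 0.01 (SE 0.06, adjusted p = 0.96), with a 95% interval of -0.11 to 0.13. The call in ZF against ZL held under 12 of 23 alternative settings. It was lost when ZL rat 1, 2 or 4, ZF rat 3, 4 or 5, or ZF-SGLT2i rat 2 or 3 was left out, with differences of 0.14 to 0.20 and limma adjusted p of at most 0.113, the latter without ZF rat 5. The call in ZF-SGLT2i against ZL was lost without ZL rat 1, 2 or 4 or ZF-SGLT2i rat 4 or 6, with limma adjusted p of at most 0.0667.

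Epas1 encodes HIF-2α, the alpha subunit that drives erythropoietin. The group means were 261 ± 22.1 in ZL, 299 ± 17.3 in ZF and 329.6 ± 25.2 CPM in ZF-SGLT2i rats (SD, n = 4). The rats were at 258, 278, 230.2 and 275 in ZL, 292, 324, 295 and 285 in ZF and 317, 359, 302 and 340.4 in ZF-SGLT2i. Both obese groups lay above the ZL rats with no overlap, and they overlapped with each other. The difference was called in ZF-SGLT2i against ZL, at 0.34 (SE 0.07, adjusted p = 0.00475). It was 0.20 (SE 0.07, adjusted p = 0.0782) in ZF against ZL and 0.14 (SE 0.07, adjusted p = 0.371) in ZF-SGLT2i against ZF, so neighbours in the order of the means did not pass the test. In ZF against ZL it was called under 3 of 23 alternative settings, with an adjusted p of 0.0124 after quantile normalization and 0.0409 with array weights in limma, and 0.0495 in DESeq2.

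Egln3 and Egln2 encode the prolyl hydroxylases PHD3 and PHD1, and Egln3 is itself switched on by HIF. Egln3 was at 18.2, 10.3, 10.4 and 17.2 in ZL, 27.0, 26.1, 18.4 and 19.8 in ZF and 17.3, 23.2, 21.9 and 17.1 in ZF-SGLT2i rats, resting on 92 to 282 reads per rat. The ZF rats lay above the ZL rats by a narrow gap, and the ZL rats fell into a lower and a higher pair. Egln3 rose in ZF against ZL by 0.69 (SE 0.19, adjusted p = 0.0222), a fold of 1.61. The call was lost without ZL rat 2, ZL rat 3, ZF rat 2 or ZF rat 3, with an adjusted p of at most 0.068 in limma. The treated rats spanned the gap, with -0.18 (SE 0.19, adjusted p = 0.675) against ZF and 0.51 (SE 0.19, adjusted p = 0.0603) against ZL. The latter was called without ZL rat 1 or ZL rat 4, with an adjusted p of 0.0303 to 0.0349 in limma.

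Egln2 was at 62.9, 72.3, 68.7 and 66.4 in ZL, 72.1, 76.3, 63.6 and 71.1 in ZF and 74.1, 75.8, 72.5 and 74.2 in ZF-SGLT2i rats. The ZF rats overlapped with both other groups, and the treated rats lay just above the ZL rats. No comparison of Egln2 passed the test, with differences of 0.06, 0.07 and 0.13 for ZF against ZL, for the treated against the ZF rats, and for the treated against the ZL rats. The last was called under 1 of 23 alternative settings, with array weights (limma adjusted p = 0.0415). When a rat was left out, Egln2 had 0.028 to 0.11 in ZF against ZL and 0.020 to 0.11 in ZF-SGLT2i against ZF. The intervals bound the difference of Egln2 between treated and untreated obese rats at -0.06 to 0.20.

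Pfkfb3 encodes an enzyme that makes fructose 2,6-bisphosphate, the activator of glycolysis, and it had the largest rise of the 9 genes in ZF against ZL. It was at 10.8, 12.3, 8.05 and 11.8 in ZL, 20.9, 18.4, 20.4 and 18.8 in ZF and 18.4, 18.7, 20.2 and 16.3 in ZF-SGLT2i rats. Every obese rat lay above every ZL rat. Pfkfb3 rose in ZF against ZL by 0.83 (SE 0.11, adjusted p = 0.000511), a fold of 1.78, and in ZF-SGLT2i against ZL by 0.74 (SE 0.11, adjusted p = 0.000558). Both calls held under all 23 alternative settings. ZF-SGLT2i and ZF rats overlapped, with a difference of -0.09 (SE 0.11, adjusted p = 0.734) and an interval of -0.34 to 0.15. The other tested members of its family were not called: Pfkfb4 was at a mean of 21.9 in ZL and 26.6 in ZF rats, with 0.27 (SE 0.18, adjusted p = 0.324), and Pfkfb2 had -0.04 (SE 0.09, adjusted p = 0.807).

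Adm encodes adrenomedullin, a peptide that widens vessels. Its level was 9.96, 13.9, 12.2 and 10.5 in ZL, 15.1, 17.2, 15.8 and 21.4 in ZF and 14.7, 17.5, 16.1 and 13.9 in ZF-SGLT2i rats, on 108 to 196 reads per rat. All obese rats lay above the ZL rats, the lowest treated rat by a narrow margin. Adm rose in ZF against ZL by 0.54 (SE 0.12, adjusted p = 0.00961) and in ZF-SGLT2i against ZL by 0.39 (SE 0.12, adjusted p = 0.0298). The second call was lost without ZL rat 1 or 4 or ZF-SGLT2i rat 3 or 4, with an adjusted p of at most 0.0926 in limma. The difference between ZF-SGLT2i and ZF was -0.15 (SE 0.12, adjusted p = 0.593), with an interval of -0.41 to 0.12. It ranged from -0.21 without ZF rat 2 to -0.048 without ZF rat 5. The receptor of adrenomedullin is made of Calcrl with Ramp2 or Ramp3. Ramp2 rose in ZF against ZL by 0.41 (SE 0.10, adjusted p = 0.0142) and Ramp3 by 0.41 (SE 0.12, adjusted p = 0.0276), and Calcrl had 0.24 (SE 0.10, adjusted p = 0.124). The call of Ramp3 was lost without ZL rat 1 or 4 or ZF rat 3 or 5, with a limma adjusted p of at most 0.0858. Adm2, which encodes the related peptide intermedin, went the other way and fell, from 50.6, 46.7, 45.9 and 51.1 in ZL to 34.6, 34.3, 35.6 and 36.6 in ZF rats, with -0.45 (SE 0.07, adjusted p = 0.00178), and its groups did not overlap.

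Vegfa encodes the vascular endothelial growth factor that tubular cells and podocytes supply to renal vessels. Its level was 314, 340.4, 408 and 300.2 in ZL, 362, 342, 262 and 428 in ZF and 384, 405, 371 and 472 in ZF-SGLT2i rats. The groups overlapped in every comparison, ZF rat 4 was the lowest of all 12 rats, and the rats of a group differed more than the group means. No comparison of Vegfa passed the test. The difference was 0.02 (SE 0.13, adjusted p = 0.938) in ZF against ZL, with an interval of -0.27 to 0.31, and 0.24 (SE 0.13, adjusted p = 0.384) in ZF-SGLT2i against ZF, with an interval of -0.05 to 0.53. The latter ranged from 0.11 without ZF rat 4 to 0.35 without ZF rat 5. Among the listed vascular endothelial growth factor (VEGF) ligands and receptors, Flt4 rose in ZF against ZL by 0.49 (SE 0.15, adjusted p = 0.0316). That call was lost without ZL rat 1 or 3 or ZF rat 2, 3 or 5 (limma adjusted p of at most 0.0951). Flt4 is the receptor of lymphatic endothelium and binds VEGF ligands other than the product of Vegfa. The receptor genes Kdr, at a mean of 175 in ZL and 216 in ZF rats, and Flt1, at 159 and 169, were not called in that comparison. Nrp2, a neuropilin that also serves lymphatic vessels, fell in ZF-SGLT2i against ZF, from 25.4, 18.9, 22.6 and 18.04 to 16.7, 14.9, 14.2 and 13.7, with -0.48 (SE 0.11, adjusted p = 0.0352). The groups did not overlap, and the call of Nrp2 was lost when any of 7 single rats was left out (ZL rat 1, ZF rat 2, 3 or 4, ZF-SGLT2i rat 3, 4 or 6), with a limma adjusted p of at most 0.107.

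Bnip3 encodes a mitochondrial protein that tags mitochondria for removal. It was at 158, 147, 162 and 155 in ZL, 123, 142, 166 and 123 in ZF and 139.6, 126, 141 and 123 in ZF-SGLT2i rats. ZF rat 4 was the highest of all 12 rats, while the other ZF rats and all treated rats lay below every ZL rat. The difference of Bnip3 was -0.18 (SE 0.09, adjusted p = 0.177) in ZF against ZL and -0.23 (SE 0.09, adjusted p = 0.0625) in ZF-SGLT2i against ZL, so neither was called. Without ZF rat 4 Bnip3 was called lower in both, at -0.26 (adjusted p = 0.0196, limma) and -0.23 (adjusted p = 0.0187, limma). Its paralogue Bnip3l had -0.04 (SE 0.06, adjusted p = 0.699) in ZF against ZL, and of the 4 mitophagy genes listed beside it, Bnip3l, Fundc1, Pink1 and Park2, 0 were called with limma in any comparison and 1 (25%) had an unadjusted p under 0.05 in each, against 33.1% of all genes in ZF against ZL, 17.2% in ZF-SGLT2i against ZF and 39.3% in ZF-SGLT2i against ZL. Pink1 was higher in every ZF-SGLT2i rat than in every ZF rat, with 0.30 (SE 0.08, adjusted p = 0.0596).

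Ndrg1, whose product restrains cell growth and responds to hypoxia and other stresses, had the largest difference of the 9 genes. It was at 3043, 3069.6, 3281 and 2186 in ZL rats, 1166, 1181, 1769 and 1182 in ZF rats and 1353, 1265, 1358 and 1255 in ZF-SGLT2i rats, on 10815 to 35408 reads per rat. All obese rats lay below all ZL rats. Within the groups ZL rat 4 was the lowest lean rat and ZF rat 4 the highest obese rat. Ndrg1 fell in ZF against ZL, with -1.13 (SE 0.15, adjusted p = 0.000346) and a fold of 0.456, and it fell in ZF-SGLT2i against ZL, with -1.13 (SE 0.15, adjusted p = 0.000164). The treated and untreated obese rats differed by 0.00 (SE 0.15, adjusted p = 0.991), with an interval of -0.31 to 0.32. Both falls were called under all 23 alternative settings, and without ZL rat 4 and ZF rat 4 the first was -1.41.

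**Figure D2:**
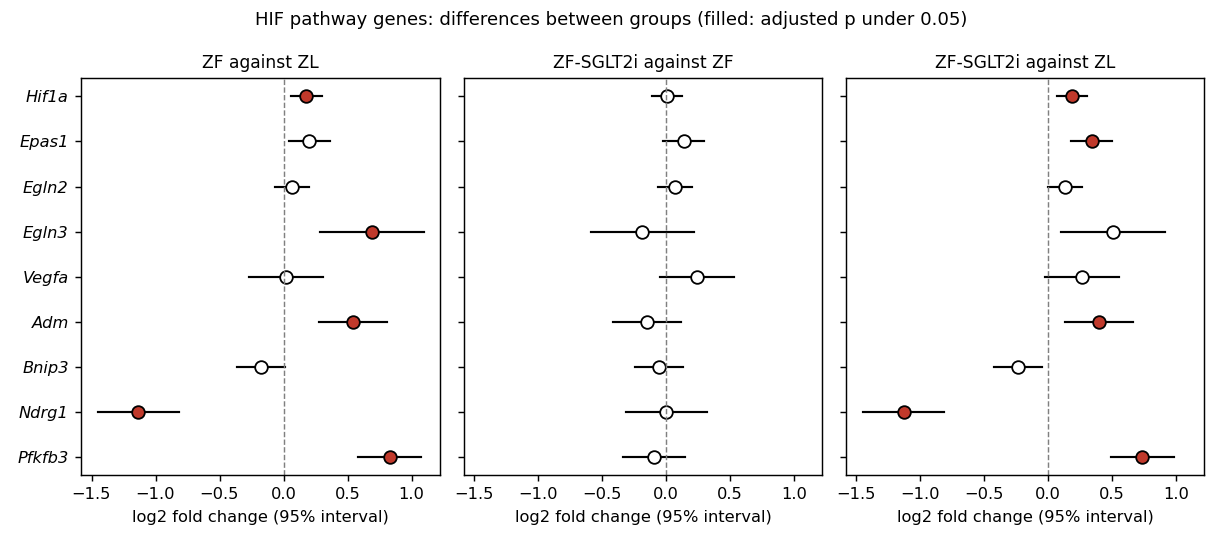
Log2 fold changes (horizontal axis, with 95% intervals from limma) of the 9 genes (vertical axis) in the 3 comparisons; filled points have an adjusted p under 0.05. Ndrg1 lies near -1.13 against ZL rats with or without treatment, and every interval of ZF-SGLT2i against ZF includes 0.

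Of the 3 genes whose levels were most like that of Ndrg1 over the 12 rats, Npas2 and Arntl belong to the circadian clock. Among the 8630 genes whose mean over all rats reached 10 CPM, the highest Pearson r of log2(value + 1) with Ndrg1 were those of Npas2 (r = 0.98), Snapc5 (r = 0.98) and Arntl (r = 0.97). These r describe 12 rats that fall into lean and obese groups, so genes that separate the groups tend to score high, and no p is given. Npas2, a partner of BMAL1, was at 43.3, 38.8, 43.4 and 22.6 in ZL, 5.27, 6.61, 10.3 and 5.36 in ZF and 7.14, 4.64, 9.26 and 5.13 in ZF-SGLT2i rats. As for Ndrg1, its lowest ZL value was that of rat 4 and its highest value among the 8 obese rats that of ZF rat 4, and this held for Arntl as well. The clock activator genes Arntl, Npas2 and Clock fell in ZF against ZL, 3 of 3 listed, with log2 fold changes of -3.38, -2.27 and -0.40. Of 8 clock repressor and output genes 7 rose, with Dbp at 2.68 and Per3 at 1.84, while 10.6% of all genes were called lower and 8.19% higher. In treated against untreated obese rats 0 of the 3 and 0 of the 8 were called with limma, against 3.15% of all genes. There 1 of each list had an unadjusted p under 0.05, against 17.2% of all genes. The time of day at which the rats were killed is not given in the sources used here, and the part of the clock in the difference of Ndrg1 was not tested.

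**Figure D3:**
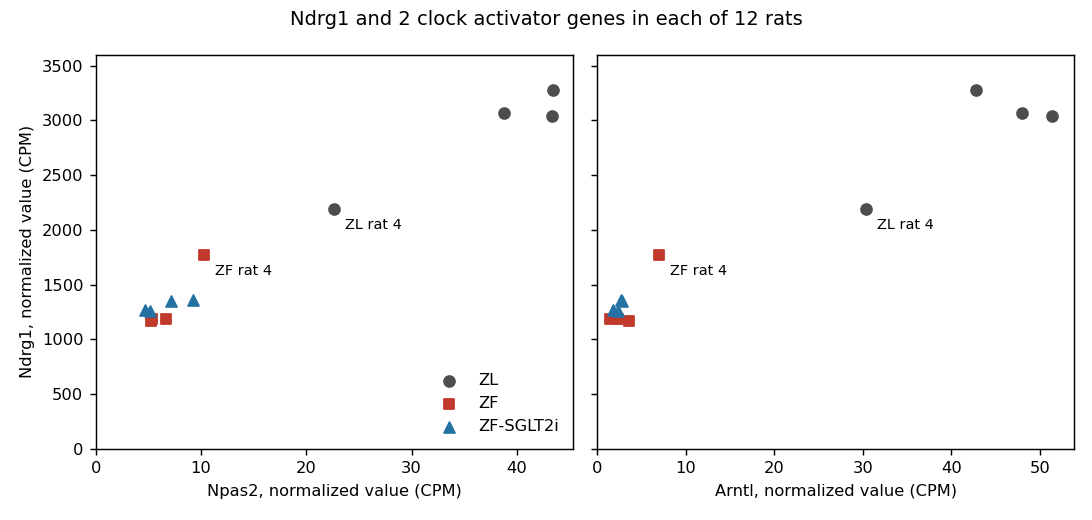
Ndrg1 (vertical axis, CPM) against the clock activator genes Npas2 (left) and Arntl (right, horizontal axes, CPM) in each of 12 rats; circles are ZL, squares ZF and triangles ZF-SGLT2i. ZL rat 4 (Ndrg1 at 2186) and ZF rat 4 (1769) lie between the other lean and the other obese rats on all 3 genes.

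By the same measure Pfkfb3 was most like Cst3 (r = 0.98), Hif1a like Ier3 (r = 0.92) and Ptgs2 (r = 0.92), Epas1 like Gltscr2 (r = 0.96), Adm like Stard8 (r = 0.93) and Bnip3 like Galk2 (r = 0.96). Vegfa was most like Srrm2 (r = 0.98), Egln2 like St6galnac6 (r = 0.91) and Egln3 like Slco2a1 (r = 0.89). All are over the same 12 rats and the same 8630 genes, and are descriptions.

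The regulators around the alpha subunits were looked at next, through 12 genes of which 11 were tested. In ZF against ZL 5 of the 11 were called, 1 higher and 4 lower, with a median difference of -0.19. That is 45.5%, against 18.8% of all genes. In ZF-SGLT2i against ZF 1 was called, or 9.09% against 3.15%, and in ZF-SGLT2i against ZL 4 were, or 36.4% against 27.4%. The beta subunit gene Arnt was at 41.9, 39.2, 45.5 and 38.4 in ZL, 38.0, 40.6, 43.9 and 41.6 in ZF and 42.8, 43.6, 41.6 and 41.8 in ZF-SGLT2i rats and was not called, with -0.01 in ZF against ZL.

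Arnt2 encodes a second HIF beta subunit. Among these 20 regulators and members, it was the only gene called with limma between treated and untreated obese rats. Arnt2 was higher than Arnt in every rat, at 113 or more against 45.5 or less. It was at 120.2, 139, 137 and 113 in ZL, 165, 171, 149 and 187 in ZF and 225, 259.5, 216 and 241 in ZF-SGLT2i rats. The 3 groups did not overlap, and their order was ZL, ZF, ZF-SGLT2i. Arnt2 rose in ZF against ZL by 0.40 (SE 0.09, adjusted p = 0.00748), in ZF-SGLT2i against ZF by 0.48 (SE 0.09, adjusted p = 0.00863), and in ZF-SGLT2i against ZL by 0.88 (SE 0.09, adjusted p = 1.99e-05), a fold of 1.84. All 3 calls held under all 23 alternative settings. The collecting duct markers given above had the same order of group means, and their part in the levels of Arnt2 was not tested.

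Of the 6 listed genes of the asparaginyl hydroxylase and the VHL ligase, Hif1an, Vhl and Tceb2 fell in ZF against ZL, 3 of 6 against 10.6% of all genes called lower. Of the 2 coactivator or inhibitor genes tested, Cited2 fell and Crebbp was not called. Hif1an, the asparaginyl hydroxylase that blocks HIF from its coactivators, was at 25.8, 24.6, 26.9 and 25.2 in ZL and 21.1, 21.1, 22.3 and 20.8 in ZF rats and fell, with -0.25 (SE 0.07, adjusted p = 0.0281). Vhl, which recognises hydroxylated HIF alpha, was at 65.5, 64.9, 74.2 and 74.6 in ZL, 56.7, 61.4, 63.8 and 57.5 in ZF and 56.7, 54.6, 59.4 and 52.4 in ZF-SGLT2i rats and fell in both obese groups, with -0.22 (SE 0.07, adjusted p = 0.0365) and -0.32 (SE 0.07, adjusted p = 0.0037) against ZL. Tceb2, which encodes the elongin B of the same ligase, fell in ZF against ZL with -0.22 (SE 0.07, adjusted p = 0.0313), while Tceb1, Cul2 and Rbx1 of the ligase were not called. Cited2, a feedback inhibitor that competes with HIF for CBP and p300, was at 149, 116, 126 and 150.3 in ZL and 104, 98.6, 90.5 and 102 in ZF rats and fell, with -0.44 (SE 0.09, adjusted p = 0.00453). In ZF-SGLT2i against ZL Hif1an and Cited2 fell as well, with -0.27 (SE 0.07, adjusted p = 0.0147) and -0.26 (SE 0.09, adjusted p = 0.044). There the call of Hif1an was lost without ZF-SGLT2i rat 3 (limma adjusted p = 0.0503), and that of Cited2 held under 11 of 23 alternative settings and was lost without ZL rat 1 or 4, ZF rat 2, 3 or 5, or ZF-SGLT2i rat 2, 4 or 6 (limma adjusted p of at most 0.139). Of these, Cited2 was called under all 23 alternative settings in ZF against ZL, Hif1an under 17, Vhl under 14 and Tceb2 under 14. Without single ZL or ZF rats the limma adjusted p reached 0.0673 for Hif1an (lost without ZL rat 1 or 3 or ZF rat 2, 3 or 5), 0.103 for Vhl (lost without ZL rat 3 or 4 or ZF rat 2, 3 or 5) and 0.0993 for Tceb2 (lost without ZL rat 1, 3 or 4 or ZF rat 2, 3 or 5). Hif3a, which encodes an alpha subunit that can restrain the others, was near 1 CPM. It was at 0.808, 0.173, 1.36 and 2.68 in ZL, 0.575, 0.2, 0.598 and 0.874 in ZF and 1.62, 1.92, 1.21 and 4.01 in ZF-SGLT2i rats. The ZL rats overlapped with both obese groups. The ZF and ZF-SGLT2i rats did not overlap, but their difference of 0.97 (SE 0.32, adjusted p = 0.124) was not called.

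**Figure D4:**
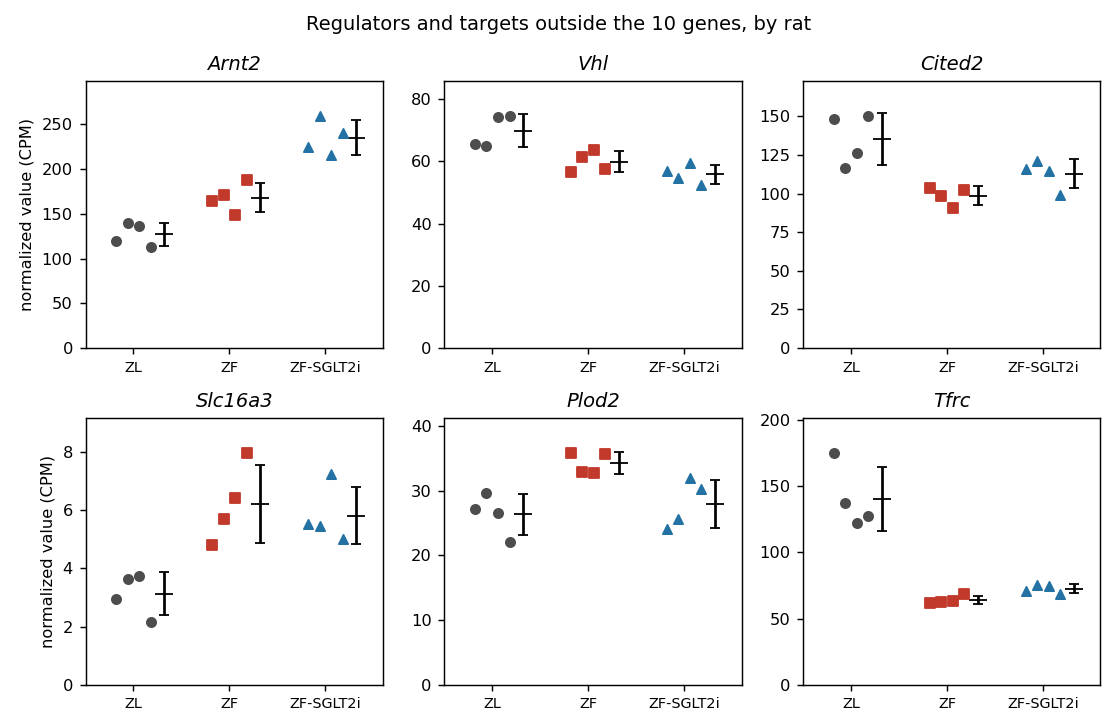
Values of 6 further genes in each rat (vertical axis, CPM from 0, a scale for each gene), by group (horizontal axis), with the mean ± SD of 4 rats as bars; they were chosen after their values were seen. Arnt2 steps up from at most 139 in ZL to at least 216 in ZF-SGLT2i rats, while Vhl, Cited2 and Tfrc are lower and Slc16a3 and Plod2 higher in ZF than in ZL rats.

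A wider list of 40 hypoxia-induced genes, of which 37 were tested, had differences of either sign. In ZF against ZL 4 of the 37 were called, 3 higher and 1 lower, and 20 had a difference above 0 and 17 below, with a median of 0.03. That is 10.8%, against 18.8% of all genes. With ZL rat 4 and ZF rat 4 both left out, 8 were called, 2 higher and 6 lower, or 21.6% against 19.2% of all genes, and without ZL rat 2 or ZF rat 4 alone 6 were called. In ZF-SGLT2i against ZF 0 of the 37 were called with limma, 1 with edgeR and 2 with DESeq2, while limma called 3.15% of all genes. An unadjusted p under 0.05 was found for 11 of the 37, or 29.7%, and for 17.2% of all genes. In ZF-SGLT2i against ZL 12 were called, 5 higher and 7 lower, or 32.4% against 27.4% of all genes.

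Slc16a3, the lactate exporter MCT4, was low in all rats, at a mean of 3.12 in ZL and 6.22 in ZF rats, and rose by 0.81 (SE 0.17, adjusted p = 0.0054). It also rose in ZF-SGLT2i against ZL, with 0.73 (SE 0.17, adjusted p = 0.0056). Plod2, a collagen lysyl hydroxylase, was at 27.2, 29.6, 26.5 and 22.0 in ZL and 35.9, 32.9, 32.6 and 35.6 in ZF rats and rose by 0.37 (SE 0.10, adjusted p = 0.0215), a call lost without ZL rat 4 or ZF rat 2 or 5 (limma adjusted p of at most 0.0588). In the ZF-SGLT2i rats Plod2 was at 24.0, 25.6, 31.9 and 30.2, below every ZF rat, but that difference of -0.29 (SE 0.10, adjusted p = 0.143) was not called.

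Tfrc, the transferrin receptor gene that HIF can switch on and whose product takes up iron, fell in ZF rats. It was at 175, 137, 122 and 127 in ZL, 61.9, 62.1, 62.9 and 68.9 in ZF and 71.1, 75.6, 74.7 and 68.2 in ZF-SGLT2i rats. The lowest ZL rat lay far above the highest obese rat. The difference was -1.11 (SE 0.09, adjusted p = 1.12e-05) in ZF against ZL and -0.93 (SE 0.09, adjusted p = 2.19e-05) in ZF-SGLT2i against ZL, and both were called under all 23 alternative settings. Of the other iron and haem genes, Cp, which encodes ceruloplasmin, had 0.57 (SE 0.22, adjusted p = 0.0828) in ZF against ZL, and Slc11a2 had 0.12 (SE 0.09, adjusted p = 0.354).

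Of the 13 genes of glucose uptake and glycolysis 1, Slc16a3, was called in ZF against ZL, or 7.69% against 18.8% of all genes, and 5 had a difference above 0 and 8 below. Slc2a1, the glucose transporter GLUT1, had -0.17 (SE 0.09, adjusted p = 0.22). Pgk1 had -0.20 (SE 0.10, adjusted p = 0.207) and Ldha, lactate dehydrogenase A, had 0.12 (SE 0.07, adjusted p = 0.259), so none of these 3 was called. In ZF-SGLT2i against ZL 5 of the 13 were called, or 38.5% against 27.4% of all genes. There the enzymes Tpi1, Pgam1 and Eno1 fell, with -0.23 (SE 0.08, adjusted p = 0.0355), -0.47 (SE 0.08, adjusted p = 0.00113) and -0.50 (SE 0.12, adjusted p = 0.00659). The call of Tpi1 was lost without ZL rat 1, 2 or 3 or ZF-SGLT2i rat 2, 3 or 6, with a limma adjusted p of at most 0.113. Pdk1, a pyruvate dehydrogenase kinase, rose with 0.46 (SE 0.12, adjusted p = 0.0139) in that comparison, as did Slc16a3. The summed proximal tubule markers given above also had their lowest group mean in the ZF-SGLT2i rats, and their part in the fall of the glycolytic enzymes was not tested.

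Further targets called in ZF-SGLT2i against ZL included Car12, a carbonic anhydrase, and Angptl4, an inhibitor of lipoprotein lipase, which rose, and Hmox1, P4ha1 and Mxi1, which fell. Angptl4 was at 1.17, 3.21, 0.794 and 0.536 in ZL, 3.93, 3.31, 4.36 and 1.202 in ZF and 6.76, 12.5, 3.02 and 6.47 in ZF-SGLT2i rats, with 1.74 (SE 0.38, adjusted p = 0.00478) for the treated against the ZL rats. P4ha1, a collagen prolyl hydroxylase, was at a mean of 46.6 in ZL, 38.3 in ZF rats and 27.9 in ZF-SGLT2i rats, with -0.74 (SE 0.13, adjusted p = 0.0013). Car12 had 0.40 (SE 0.11, adjusted p = 0.0196), Hmox1, haem oxygenase 1, had -0.49 (SE 0.17, adjusted p = 0.0467) and Mxi1, an antagonist of MYC, had -0.28 (SE 0.10, adjusted p = 0.0404). The call of Hmox1 held under 7 of 22 alternative settings and that of Mxi1 under 12 of 23, with limma adjusted p of up to 0.121 and 0.108 when a rat was left out (any of 8 rats for Hmox1, ZL rat 2, 3 or 4, ZF rat 2 or 3, or ZF-SGLT2i rat 3, 4 or 6, and any of 7 for Mxi1, ZL rat 1 or 4, ZF rat 3, or any ZF-SGLT2i rat). Car9, often used as a hypoxia marker, was at 0.449, 0.173, 0.34 and 0.179 in ZL and 0.575, 0.401, 0.171 and 0.656 in ZF rats and was too low to be tested. Epo and Nos2 were not analysed here.

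**Figure D5:**
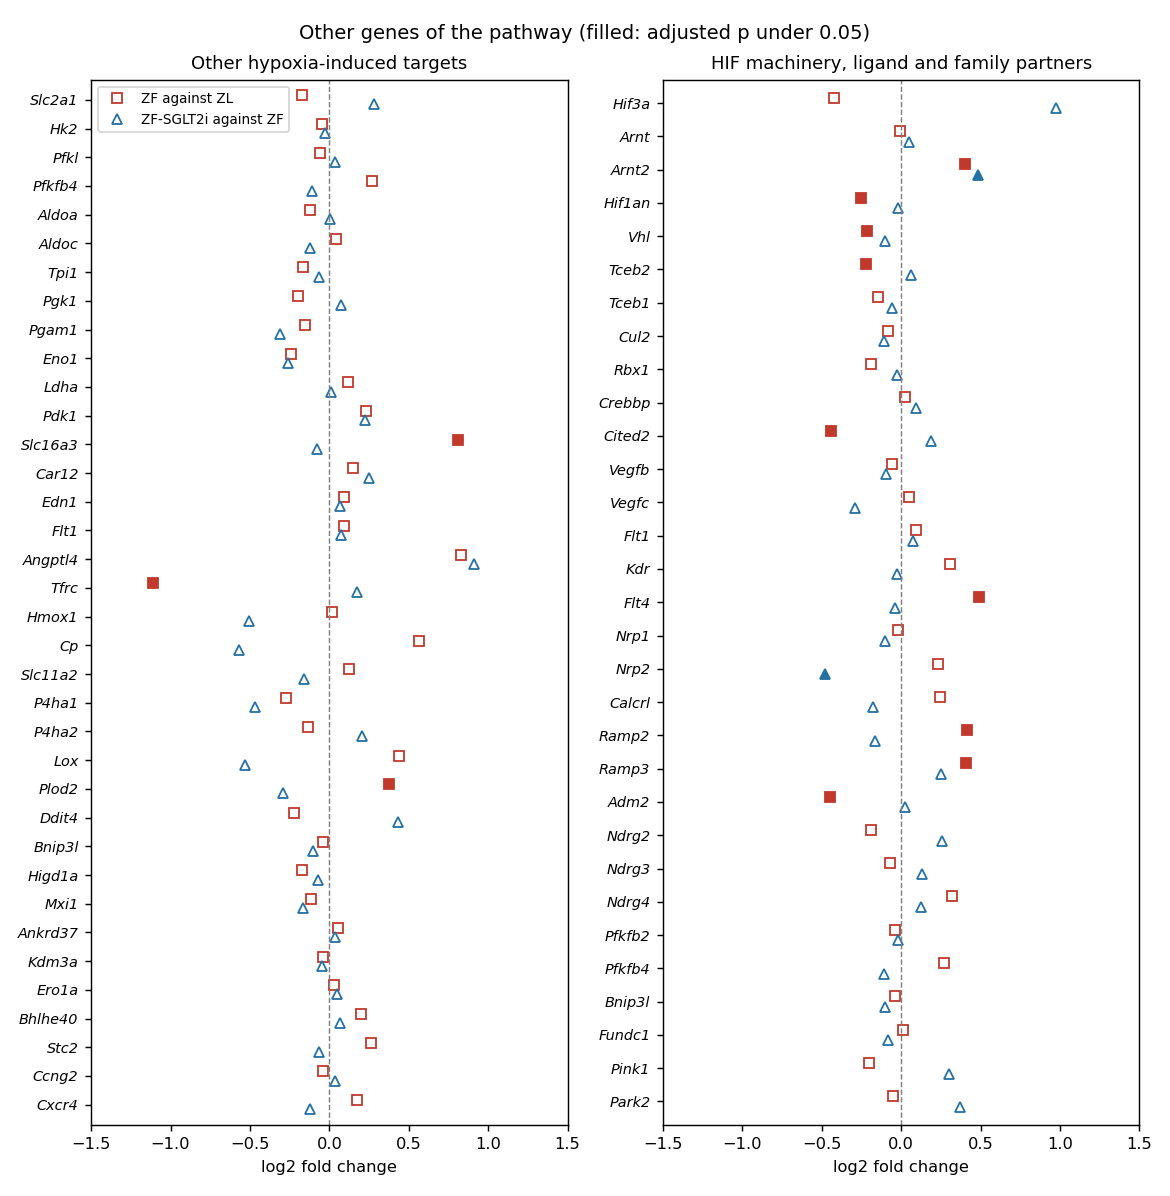
Log2 fold changes (horizontal axis) of the other pathway genes (vertical axis) in ZF against ZL (squares) and ZF-SGLT2i against ZF (triangles); filled symbols have an adjusted p under 0.05 in limma. In the left panel 3 of the 36 hypoxia-induced targets drawn are filled, all in ZF against ZL, and in the right panel Arnt2 and Nrp2 carry the filled triangles.

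The partners and family members of the 5 target genes formed a list of 22, of which 20 were tested. In ZF against ZL 4 were called, Flt4, Ramp2 and Ramp3 higher and Adm2 lower, which is 20% against the 18.8% of all genes. In ZF-SGLT2i against ZF Nrp2 was called, which is 5% against 3.15%, and in ZF-SGLT2i against ZL Flt4, Ramp3 and Ndrg4 were called higher and Adm2 lower, which is 20% against 27.4%. Leaving out ZL rat 1 or 3 or ZF-SGLT2i rat 2, 4 or 6 ended the call of Flt4 there (limma adjusted p of at most 0.107), and leaving out ZL rat 2, 3 or 4 or ZF-SGLT2i rat 4 that of Ndrg4 (at most 0.0705). The relatives of Ndrg1 were not called in ZF against ZL: Ndrg2 was at a mean of 68.9 in ZL, 60.0 in ZF rats and 71.8 in ZF-SGLT2i rats, with -0.19 (SE 0.09, adjusted p = 0.15) in ZF against ZL, Ndrg3 had -0.07 (SE 0.08, adjusted p = 0.608) and Ndrg4 had 0.32 (SE 0.13, adjusted p = 0.109). Ndrg2 was higher in every ZF-SGLT2i rat than in every ZF rat, with a difference of 0.26 (SE 0.09, adjusted p = 0.138) that was not called.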

How the data were processed

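Total RNA of kidney cortex from 12 rats was depleted of ribosomal RNA, made into directional libraries and sequenced in 150 bp pairs, per the labels and the study's methods. The submitters' processing notes name the build rn6, Trimmomatic 0.38, RSEM 1.3.0, Bowtie2 and edgeR. The annotation and the counting by strand are not given in the sources used here. The authors deposited a signal value per gene and rat. Every value in the table was a whole multiple of 1 step per rat, and the steps equalled those of edgeR CPM with TMM factors, so 100% of the values came out as whole reads. Reads shared between similar or overlapping genes could not be separated.

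Genes that reached a value of 1 in 4 or more rats, 11633 in all, were fitted with limma 3.58.1 (R 4.3.3) on log2(value + 1), with the 3 groups in a fit, a trended prior and two-sided p-values. The table gives no counts, so edgeR 4.0.16 and DESeq2 1.42.0 on the recovered whole reads were alternatives, and at an adjusted p under 0.05 edgeR called 2180, 368 and 3216 genes in ZF against ZL, in the treated against the ZF rats, and in the treated against the ZL rats. The tools were tested on simulated data. Rats of a group were not copies, since the chi-square of 2 rats divided by the number of genes was 5.43 to 50.1. The labels do not state separate litters or days, so p-values measure the spread between these rats. The same replicate numbers occur in several groups: of 9 pairs of rats with the same number, 2 had a correlation of deviations over 0.1, so the numbers were not taken as pairs.

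The genes and lists were chosen with earlier results of these data known. All 10 genes were to be named, with the list genes called in a comparison, and the 3 nearest genes by Pearson r. Of the listed names 166 were found as symbols, 4 as synonyms and 12 not. Settings tried were median-ratio rescaling, quantile normalization, a pseudocount of 0.1, no filter, a mean of at least 10, a fit of only the groups compared, array weights, the replicate number as a block, the other tools, and leaving out each rat. Leaving out ZL rat 4 and ZF rat 4 together was chosen after seeing the data. A listed gene and a promoter stretch are not reported here, though the counts over lists and windows hold them. Coordinates are of GRCr8, used for promoters only, since the expression values rest on rn6.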

Additional observations from a re-analysis of the deposited data

Results flagged for a closer look

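Within groups of 4 rats, a rat was marked when its gap to the nearest other rat was a larger share of the group's range than Dixon's test allows at 95%. Of 132 groups over 44 genes 3 were marked, while chance marks about 1 in 20, or 6.6 groups. Ndrg1 was at 1769 in ZF rat 4 against 1166 to 1182 in the other ZF rats. Tef, a clock output gene, was at 149 in ZL rat 4 against 89.1 to 98.7 in the other ZL rats. Tfrc was at 68.9 in ZF rat 5 against 61.9 to 62.9 in the other ZF rats, still far below every ZL rat. The first and second of these are the rats that also lay between the lean and obese groups in Arntl and Dbp, and a common source was not tested.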

How the results depend on the processing

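Of 621 values of the 9 genes under alternative settings, 558 kept their direction and their side of the threshold, 31 lost a call, 13 gained one and 19 changed sign. The sign changes were of differences near 0 that were not called. For Vegfa in ZF against ZL the difference was -0.12 with the replicate block and -0.085 to 0.15 when a rat was left out. For Hif1a in ZF-SGLT2i against ZF it was -0.0020 with edgeR and -0.024 to 0.046 when a rat was left out. For Bnip3 in ZF-SGLT2i against ZF it was 0.032 with ZL rat 4 and ZF rat 4 both left out and -0.11 to 0.032 when a rat was left out. For Ndrg1 in ZF-SGLT2i against ZF it was -0.023 with the replicate block, -0.029 with edgeR, -0.024 with DESeq2 and -0.049 to 0.15 when a rat was left out.

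With the replicate number as a block, the genes called fell to 807, 223 and 1502 in ZF against ZL, in the treated against the ZF rats, and in the treated against the ZL rats, the HIF pathway genes called were 2 (Ndrg1 and Pfkfb3) in each comparison with ZL, and the other hypoxia-induced targets called were 2 in ZF against ZL and, for the treated against the ZL rats, 6. Of 9 rats with a same-numbered rat in another group 1 correlated best with its own number, and the numbers may be no pairing. In ZF-SGLT2i against ZF, array weights called 689 genes and DESeq2 641. There the other targets called, 0 as reported above, were 1 with median-ratio rescaling, quantile normalization, the fit of 2 groups, array weights or edgeR, and 2 with DESeq2. With ZL rat 4 and ZF rat 4 both left out, 8 other targets were called in ZF against ZL, 2 higher and 6 lower. When a rat was left out, the genes called ranged from 1384 to 2453 in ZF against ZL and, for the treated against the ZF rats, from 176 to 569, and for the treated against the ZL rats from 2238 to 3302. The HIF pathway genes called ranged from 3 to 5 in ZF against ZL, lowest without ZL rat 2 or ZF rat 3, and from 3 to 6 in ZF-SGLT2i against ZL, lowest without ZF-SGLT2i rat 4. The other targets called ranged from 3 to 6 in ZF against ZL, from 0 to 2 in ZF-SGLT2i against ZF and from 9 to 13 in ZF-SGLT2i against ZL. The cause of these changes was not tested, other than that fewer rats or degrees of freedom enter a fit. Of the 9 genes Egln3, on 92 to 282 reads per rat, had the widest intervals.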
